A study of Mus musculus with 5 samples.

Results

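BCL2 family survival and death genes were followed across 5 RNA-seq libraries of Lewis lung carcinoma (LLC), a mouse lung cancer cell line grown as tumors. The members were BCL2, BCL2L1, MCL1, BAK1, BBC3, PMAIP1, BCL2L11, BID, BAD and BIK, taken by symbol. Of these 10 genes, 9 had a row in all 3 deposited tables that supply the libraries, among 13979 shared symbols, and BIK did not. All 9 passed a filter of a mean of at least 1 scaled FPKM, as did 11214 genes in all. A scaled FPKM is the deposited value (fragments per kilobase of gene, as read from its form) divided by the sum of its column over the shared symbols and multiplied by 1000000.

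Per the paper's methods, LLC cells were injected under the skin of the flank of female C57BL/6 mice aged 4 to 6 weeks, and tumors were collected 1 day after the last treatment. Injections into a vein were given once every 3 days, 5 times in all. The groups were Control (saline); BMN, a PARP inhibitor, at 0.25 mg/kg; PAZA, a polymer that carries the DNA methyltransferase inhibitor azacytidine, at 0.25 mg/kg of azacytidine; BMN/PAZA low dose, at 0.25 mg/kg of each drug; and BMN/PAZA high dose, at 2 mg/kg of each drug. Each group has 1 library, and whether tumors of several mice were pooled is not given in the sources used here. The labels instead describe LLC cells of lung treated in culture for 72 h. Markers of several tissues were present, with summed levels of 188 to 283 scaled FPKM for 6 leukocyte genes, 319 to 459 for 6 macrophage genes, 313 to 817 for 6 fibroblast genes and 10.2 to 212 for 7 skeletal muscle genes, the last with Control and BMN/PAZA high dose at the ends. Of 6 lung epithelium genes, none had a row in all of the tables, and 5 (among them SFTPC and SCGB1A1) were listed at 0 in the only table that held them, while AGER reached 1.15 deposited FPKM. In bulk tissue, fewer cells of a type and less RNA per cell cannot be told apart. Since a group is a single library, the spread between replicates is unknown, no test was run, and every difference given here compares 2 libraries. The depth is unknown, because no counts were used here.

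Proteins of the BCL2 family decide whether the outer membrane of the mitochondrion is opened, which releases cytochrome c and starts the caspase cascade. Survival members (BCL2; BCL2L1, which encodes BCL-XL; MCL1) hold back the effectors BAK1 and BAX, which form the pores, and BH3-only proteins bind the survival members or activate the effectors. Several BH3-only genes are switched on by stress, among them BBC3 (PUMA) and PMAIP1 (NOXA), which are known targets of p53 after DNA damage. PARP inhibitors cause DNA damage in dividing cells, and azacytidine lowers DNA methylation.

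The 3 survival genes had their highest level in the Control library, and the largest difference among them was that of BCL2L1, at 15.4 scaled FPKM in BMN/PAZA high dose and 30.7 in Control. PMAIP1 varied most of the 9 members, from 1.52 in Control to 8.97 in BMN. BBC3 was highest in BMN, at 2.89, and lowest in BMN/PAZA low dose, at 0.708. The levels of the 9 genes by library show MCL1 on top and BBC3 at the bottom in all 5 libraries.

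**Figure D1:**
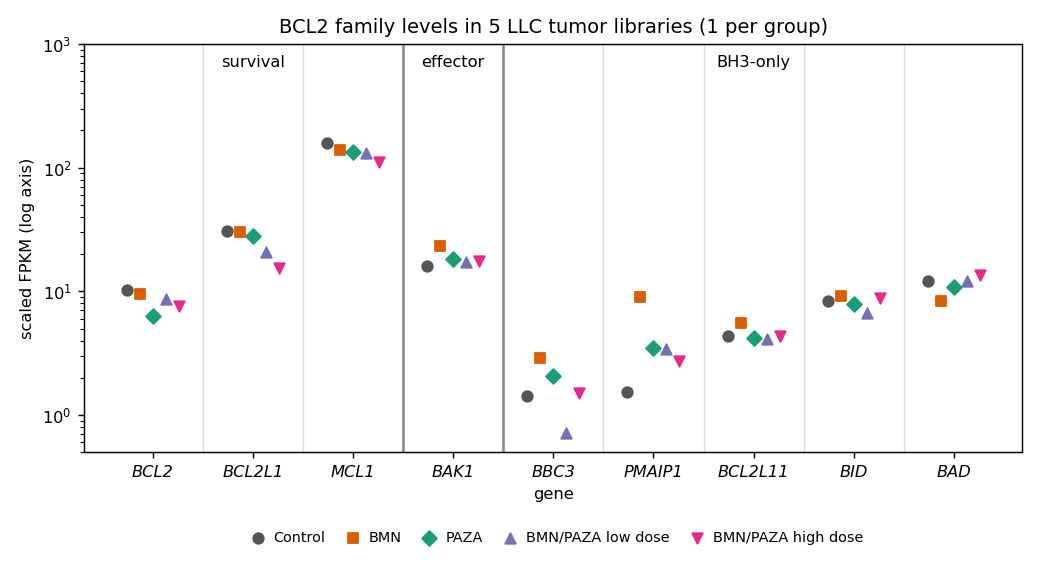
Level of 9 BCL2 family genes (x axis, grouped as survival, effector and BH3-only genes) in scaled FPKM on a log axis, with 1 point per library. PMAIP1 ranges from 1.52 in Control to 8.97 in BMN, whereas MCL1 stays between 111 and 157.

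Among the survival genes, MCL1, which encodes a short-lived protein and lies on chromosome 3 of GRCm38 from 95658788 to 95663176, was the most abundant member per length. It stood at 157 scaled FPKM in Control, 138 in BMN, 133 in PAZA, 132 in BMN/PAZA low dose and 111 in BMN/PAZA high dose. Its highest value was 1.42 times its lowest, and none of its differences reached 1.5-fold. The fold is computed on the log2(scaled FPKM + 1) scale, where 1.5-fold is a difference of 0.58, and it understates the change of weakly expressed genes. BCL2L1 (chromosome 2, 152780668 to 152831728) was at 30.7 in Control, 30.3 in BMN, 27.9 in PAZA, 20.7 in BMN/PAZA low dose and 15.4 in BMN/PAZA high dose. The 3 libraries of Control and single agents were close to each other, and both combination libraries lay under them. BCL2 (chromosome 1, 106538178 to 106714274) was at 10.2 in Control, 9.56 in BMN, 6.26 in PAZA, 8.75 in BMN/PAZA low dose and 7.62 in BMN/PAZA high dose. Here PAZA was the lowest library, in place of BMN/PAZA high dose. Of all 11214 genes, 22.1% were highest in Control. T cells, which are known to express BCL2, gave a summed level of 7 markers of 13.5 in Control, 10.2 in BMN, 19.7 in PAZA, 8.62 in BMN/PAZA low dose and 3.85 in BMN/PAZA high dose, so the library lowest in BCL2 was the highest in T cell markers, and the part of these cells in the BCL2 levels was not tested.

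BAK1, the effector of the list (chromosome 17, 27019810 to 27029009), was at 16.0 scaled FPKM in Control, 23.4 in BMN, 18.1 in PAZA, 17.2 in BMN/PAZA low dose and 17.6 in BMN/PAZA high dose. Control was the lowest library for BAK1 and for PMAIP1, as for 15.8% of all genes, and the BMN library was apart from the other treated libraries. BAX, the other pore-forming effector, was within a narrower range, at 25.3, 28.5, 27.2, 21.8 and 26.1 in the same order of libraries.

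Among the 9 members, the BH3-only genes gave the widest and the narrowest ranges. PMAIP1 (chromosome 18, 66458533 to 66465565) was at 1.52 in Control, 8.97 in BMN, 3.51 in PAZA, 3.39 in BMN/PAZA low dose and 2.74 in BMN/PAZA high dose. All treated libraries lay above Control, and BMN was 5.90 times Control. BBC3 (chromosome 7, 16308393 to 16318205) was at 1.42 in Control, 2.89 in BMN, 2.06 in PAZA, 0.708 in BMN/PAZA low dose and 1.49 in BMN/PAZA high dose. Thus the single agents were above Control and the low dose combination was below it, at a level under 1 scaled FPKM. BCL2L11, which encodes BIM (chromosome 2, 128126038 to 128162547), was at 4.33 in Control, 5.51 in BMN, 4.17 in PAZA, 4.11 in BMN/PAZA low dose and 4.35 in BMN/PAZA high dose. BID, whose protein is cut by caspase-8 downstream of death receptors (chromosome 6, 120891930 to 120916853), was at 8.41, 9.08, 7.91, 6.71 and 8.88 in that order of libraries. The highest library was 1.34 times the lowest for BCL2L11 and 1.35 times for BID, the narrowest ranges of the 9 members. BAD, whose protein binds BCL2 and BCL-XL and is kept inactive by phosphorylation (chromosome 19, 6941861 to 6951899), was at 12.0 in Control, 8.36 in BMN, 10.8 in PAZA, 12.1 in BMN/PAZA low dose and 13.4 in BMN/PAZA high dose. BAD was the only member of the 9 with its lowest value in BMN, whereas 5 members (BAK1, BBC3, PMAIP1, BCL2L11 and BID) had their highest value there, as did 37.4% of all genes. On the opposite strand, Gpr137 overlaps Bad, Ggnbp1 overlaps Bak1, Bcl2l13 overlaps Bid, and an antisense RNA gene overlaps Bcl2, and whether fragments were assigned by strand is not given in the sources used here.

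BIK (chromosome 15, 83526862 to 83544634), a BH3-only gene of the endoplasmic reticulum, had no row in the tables with BMN/PAZA high dose and was not scaled. In the other tables it was listed at 0 FPKM in Control, BMN and BMN/PAZA low dose. Only the PAZA library had a value above 0 for BIK, at 0.740 FPKM in the table with Control and 0.750 in the table with BMN/PAZA low dose.

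DNA methyltransferases, which azacytidine inhibits, methylate cytosines that precede a guanine (CpG), so promoter sequences are given with every CpG in capitals for BBC3, the member that was lower in BMN/PAZA low dose than in either single agent by the fold used below, and for BCL2L1, the survival member with the widest range. They are the RefSeq promoters of GRCm38.p6 with the most CpG for each gene, at chr7:16310181-16310480 on the plus strand and chr2:152831679-152831978 on the minus strand, from 250 bases before to 50 bases after a start site.
BBC3: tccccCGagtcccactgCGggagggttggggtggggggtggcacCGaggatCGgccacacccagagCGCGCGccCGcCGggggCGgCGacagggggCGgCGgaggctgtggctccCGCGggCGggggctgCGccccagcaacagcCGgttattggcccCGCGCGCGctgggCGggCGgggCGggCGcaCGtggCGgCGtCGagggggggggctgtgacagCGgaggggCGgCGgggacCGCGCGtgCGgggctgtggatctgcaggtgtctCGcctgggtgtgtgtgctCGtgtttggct
BCL2L1: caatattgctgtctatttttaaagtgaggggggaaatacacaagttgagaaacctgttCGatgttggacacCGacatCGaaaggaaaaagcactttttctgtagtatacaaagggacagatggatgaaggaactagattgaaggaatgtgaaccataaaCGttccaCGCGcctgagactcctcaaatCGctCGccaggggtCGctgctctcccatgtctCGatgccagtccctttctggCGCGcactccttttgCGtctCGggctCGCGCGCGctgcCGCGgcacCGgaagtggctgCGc
The BBC3 window holds 39 CpG in 300 bases, and 4.45% of 32851 promoters of this length hold as many. The BCL2L1 window holds 22, a number reached by 23.1% of promoters. A BCL2L1 window at another start, chr2:152828440-152828739, holds 1 CpG. RefSeq promoters of 8 of the 10 members were used, with 14 windows. Of these, 13 held more than the median of 7 CpG that 48.7% of all promoters exceed. PMAIP1 was left out because member promoters on its chromosome were not used, and BIK had no promoter listed. A p53 half-site was searched as the 10-base consensus, which reads the same on both strands. It was in none of the 14 windows and in 8.36% of all promoters. For so few windows, some of them from the same gene, this is close to that share. Sequence outside the windows and PMAIP1 were not searched. No methylation was measured in these libraries.

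Differences between libraries were set beside those of all genes that passed the filter. The median difference of all genes was 0.09 on the log2 scale for BMN against Control, −0.10 for PAZA, −0.08 for BMN/PAZA low dose and −0.22 for BMN/PAZA high dose. Centring on that median gives the shares named below as centred.

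In BMN against Control, 2 of 9 members were at least 1.5-fold higher, PMAIP1 and BBC3, and 0 were lower. Of all genes, 13% were that much higher and 6.97% lower (centred, 10.46% and 9.23%). The difference of PMAIP1 was 1.98 on the log2 scale, and 0.696% of genes were as far above Control. For BBC3 the difference was 0.69, a place shared or passed by 10.3% of genes. BAK1, at 0.52, and BAD, at −0.48, stood closest to the fold without reaching it, and BAD was past it, at −0.59, with the libraries scaled without the 100 highest genes. The median of the 9 members was 0.10, next to 0.09 over all genes.

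In PAZA against Control, PMAIP1 was higher by 0.84 on the log2 scale and BCL2 was lower by at least 1.5-fold, at −0.63. Among all genes 10.6% were higher and 15.6% lower by that fold (centred, 13.96% and 11.5%), and 1 member in each direction is close to these shares. Relative to the median of all genes BCL2 stood at −0.53, short of the fold. BBC3 had a difference of 0.34. The median of the members was −0.08, next to −0.10 over all genes. This comparison can also be read from the 2 deposited columns of 1 table, where PMAIP1 had 2.02 FPKM in PAZA and 0.832 in Control.

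The low dose combination against Control had 1 member past the fold, PMAIP1, with a difference of 0.80. Among all genes 11.2% were higher and 14.2% lower (centred, 13.6% and 11.1%). BCL2L1, at −0.55, and BBC3, at −0.50, lay just under the fold on the lower side. At the high dose, BCL2L1 was the 1 member past the fold, at −0.95, and 6.30% of genes were as far below Control. The background was 8.44% higher and 20.2% lower (centred, 13.99% and 10.2%). MCL1 had a difference of −0.50 and PMAIP1 of 0.57, and relative to the median of all genes these are −0.28 and 0.79, so that PMAIP1 is past the fold after centring and MCL1 is not. The 4 comparisons share the Control library and are not independent of each other.

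BMN/PAZA low dose was set against BMN, at the same BMN dose. Per the paper, BMN was loaded into PAZA in the combination groups, so these libraries differ in the form of BMN as well as in azacytidine. Drug levels in the tumors are not given by these libraries, and the part of delivery was not tested. Both PMAIP1 and BBC3, the members that were at least 1.5-fold higher in BMN than in Control, were lower here past that fold, at −1.18 and −1.19 on the log2 scale, and 0 members were higher by the fold. Of all genes 20.3% were lower and 9.37% higher (centred, 12.7% and 14.6%), and 3.41% and 3.38% of genes were as far down as PMAIP1 and BBC3. Relative to the median of all genes the differences were −1.004 and −1.01, and BAD reached 0.67. These and the comparison of BMN with Control share the BMN library. BCL2L1 differed by −0.53, BAK1 by −0.42 and BAD by 0.49. At the high dose against BMN, PMAIP1 (−1.42), BCL2L1 (−0.93) and BBC3 (−0.64) were lower and BAD (0.63) was higher by the fold. The background was 26.4% lower and 6.13% higher (centred, 10.496% and 13.3%). BBC3 was −0.33 relative to the median and so was not past the fold after centring.

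BMN/PAZA low dose, with BMN loaded into PAZA, was also set against PAZA. BBC3 was lower, at −0.84, as the 1 member past the fold, beside 8.13% of genes lower and 9.12% higher. PMAIP1 (−0.04), BCL2L11 (−0.02) and MCL1 (−0.01) were at nearly equal levels in these libraries. BCL2 was higher by 0.43 and BCL2L1 lower, at −0.41, both short of the fold. For PMAIP1, BMN against Control thus gave 1.98 and BMN/PAZA low dose against PAZA gave −0.04, and no test of that contrast is possible with 1 library per group.

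Between the doses, 0 of 9 members were past the fold in BMN/PAZA low dose against BMN/PAZA high dose. Among all genes 12.5% were higher and 6.38% lower (centred, 7.87% and 8.90%). BBC3, at −0.54, BCL2L1, at 0.40, and BID, at −0.36, had the widest differences. Relative to the median of all genes, BBC3 stood at −0.68.

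**Figure D2:**
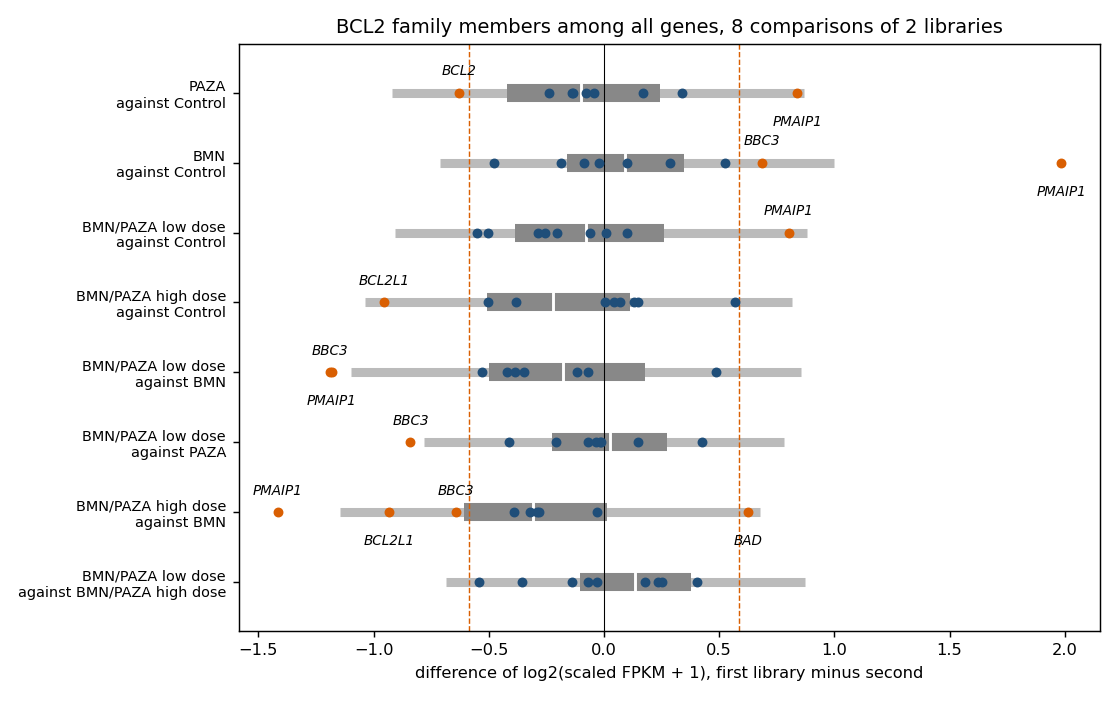
Difference of log2(scaled FPKM + 1) between 2 libraries (x axis) for 8 comparisons (y axis); points are the 9 members, orange and named where at least 1.5-fold (dashed lines at 0.58 on either side), pale bars span the 5th to 95th and dark bars the 25th to 75th percentile of 11214 genes, and the white line is their median. PMAIP1 in BMN against Control, at 1.98, is far outside the pale bar, and most other members lie within it.

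Ratios of genes within a library do not depend on how the library was scaled. PMAIP1, whose protein binds chiefly MCL1, was 0.966% of the MCL1 level in Control, 6.49% in BMN, 2.64% in PAZA, 2.58% in BMN/PAZA low dose and 2.47% in BMN/PAZA high dose. The 3 libraries with PAZA were thus close to each other, above Control and below BMN. BBC3 was 0.902% of MCL1 in Control, 2.09% in BMN, 1.55% in PAZA, 0.538% in BMN/PAZA low dose and 1.35% in BMN/PAZA high dose. BCL2L1 was 19.5%, 21.9% and 21.0% of MCL1 in Control, BMN and PAZA, and 15.7% and 13.9% in the low and high dose combination. The combination libraries again stood below the rest. Among the 3 survival genes, MCL1 made up 79.3% of the summed level in Control, 77.6% in BMN, 79.6% in PAZA, 81.7% in BMN/PAZA low dose and 82.8% in BMN/PAZA high dose. The share of BCL2 was lowest in PAZA, at 3.74%, and between 5.15% and 5.70% in the other libraries. BAD was 39.2% of the BCL2L1 level in Control, 27.6% in BMN, 38.9% in PAZA, 58.6% in BMN/PAZA low dose and 87.4% in BMN/PAZA high dose. The 6 death members summed to 0.220 of the survival members in Control, 0.327 in BMN, 0.279 in PAZA, 0.274 in BMN/PAZA low dose and 0.363 in BMN/PAZA high dose. Control had the lowest ratio, and the high dose combination had the highest with the lowest survival sum, 134 against 198 scaled FPKM in Control. With the mean of log2 levels in place of the sum, death minus survival members was −2.59 in Control, −1.97 in BMN, −2.07 in PAZA, −2.24 in BMN/PAZA low dose and −1.81 in BMN/PAZA high dose, with the same lowest and highest library. RNA levels do not give the amounts of these proteins.

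**Figure D3:**
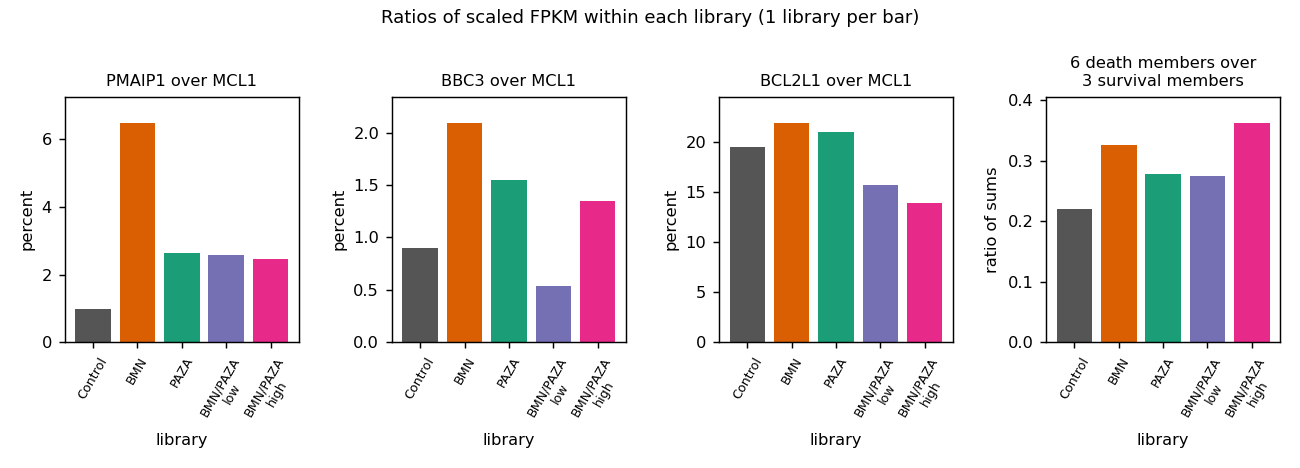
Ratios of scaled FPKM within each of 5 libraries (x axis), as percent of MCL1 for PMAIP1, BBC3 and BCL2L1, and as the ratio of the summed 6 death to 3 survival members; each bar is 1 library, without replicates. PMAIP1 reaches 6.49% of MCL1 in BMN and 0.966% in Control.

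The BMN library, highest in PMAIP1, was also highest in the summed markers of epidermis, fibroblasts and dividing cells, and of leukocytes and macrophages. Summed over 4 of 6 epidermis markers with a row, these were 67.2 in Control, 201 in BMN, 8.001 in PAZA, 1.85 in BMN/PAZA low dose and 12.4 in BMN/PAZA high dose, and KRT5 was listed at 0 in BMN/PAZA low dose. TRP63, which encodes the p53 relative p63 of squamous epithelium, was at 1.39, 6.24, 0.241, 0.115 and 0.737 in that order. Proliferation markers (6 of 6) summed to 698, 884, 821, 666 and 654. PAZA, BMN/PAZA low dose and BMN/PAZA high dose were above Control in PMAIP1 while their epidermis markers were below Control. Skeletal muscle markers (7 of 7) summed to 10.2 in Control, 193 in BMN, 62.9 in PAZA, 13.0 in BMN/PAZA low dose and 212 in BMN/PAZA high dose. For adipocytes (4 of 5) the sums were 44.2, 92.4, 114, 55.9 and 66.6, for endothelium (5 of 5) 38.2, 64.5, 69.3, 42.8 and 47.6, and for neutrophils (6 of 6) 78.8, 68.9, 130, 126 and 238 in that order. Muscle markers were thus far above Control in BMN and BMN/PAZA high dose, and neutrophil markers were highest in BMN/PAZA high dose, the library lowest in BCL2L1. The part of these tissues in the member levels was not tested.

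The genes whose pattern over the 5 libraries was most like that of a member were found by the largest deviation between their centred log2 levels. Nearest to BCL2L1 were PPP2R2D (0.07), B4GALT5 (0.07) and ZFP93 (0.09), and B4GALT5 stood at 135 scaled FPKM in Control and 66.7 in BMN/PAZA high dose. Nearest to BBC3 were OARD1 (0.12), RABL3 (0.13) and PILRB2 (0.14). For PMAIP1 they were TAF10 (0.13), BOLA2 (0.13) and GTF2H5 (0.14). In all 3, the BMN value was 2.09 times the low dose value of the table with PAZA, to within 0.1%, a ratio shared by 139 genes, where the neighbouring ratios hold about 4.7 genes for the same width. None of the 9 members was among these 139 genes or off the constant that links the tables of 1 library, and PMAIP1 had a ratio of 2.46. Without such genes, METTL17 (0.23), PRG4 (0.24) and SULF2 (0.30) were nearest to PMAIP1. Likeness over 5 libraries is a description only.

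Other genes of the apoptosis pathway were counted from 5 lists. The shares of all genes past the fold against Control are those given above for each comparison. None of those reported here was past the fold against Control in the same direction in all 4 treated libraries among the genes that passed the filter. Of 15 other BCL2 family genes, 13 had a row and 10 passed the filter. In BMN, BCL2L12 was higher (5.49 against 2.51 in Control) and BNIP3 lower (59.4 against 115). In PAZA, BCL2A1B and BCL2L13 were higher and BCL2L2, a survival gene, was lower (3.02 against 5.44). BCL2L13 was also higher in BMN/PAZA low dose, where BCL2A1D was lower, and BCL2A1A and BCL2A1D were lower in BMN/PAZA high dose. The BCL2A1 genes are near-identical survival genes of leukocytes, so that their fragments may be split between copies. BMF, a BH3-only gene that failed the filter and was picked after its values were seen, was at 2.76 in Control and between 0.176 and 0.502 in the treated libraries.

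Among apoptosome and caspase genes, CASP9, the initiator caspase of the mitochondrial route, was past the fold above Control in PAZA, BMN/PAZA low dose and BMN/PAZA high dose, at 1.24 in Control, 1.93 in BMN, 2.37 in PAZA, 3.37 in BMN/PAZA low dose and 4.75 in BMN/PAZA high dose. HTRA2 was higher in BMN/PAZA low dose (38.5 against 23.1), and VDAC1 was lower in BMN/PAZA high dose (137 against 206). Of the inhibitors of apoptosis, 7 of 7 passed the filter, and 0 were past the fold in BMN and in BMN/PAZA low dose, beside shares of all genes of 13% higher and 6.97% lower in BMN and 11.2% and 14.2% in BMN/PAZA low dose. In PAZA, BIRC5 (survivin) was higher, at 305 against 202, and BIRC2, BIRC3 and NAIP5 were lower, with BIRC2 at 16.0 against 40.1. BIRC2 and BIRC3 were also lower in BMN/PAZA high dose. The list medians against Control were 0.05 in BMN, −0.53 in PAZA, −0.11 in the low and −0.23 in the high dose combination, next to 0.09, −0.10, −0.08 and −0.22 over all genes.

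Of 11 death receptor genes, 8 passed the filter, and none was past the fold in BMN, where 13% of all genes were higher and 6.97% lower. FASL was higher in PAZA and listed at 0 in BMN/PAZA low dose. CFLAR, which encodes the caspase-8 inhibitor FLIP, was lower in BMN/PAZA low dose (23.1 against 36.3), and RIPK1 was lower in both combination libraries (42.9 and 38.5 against 67.6). The medians were 0.24, −0.01, −0.18 and −0.17 in the same order, next to the same medians over all genes. Of 14 regulators of the members, 13 passed the filter. DDIT3, which encodes the stress factor CHOP, was listed at 0 in BMN and was at 7.83 in Control and 15.7 in PAZA. TRP53, the gene of p53 itself, was at 2.05 in Control, 1.57 in BMN, 4.36 in PAZA, 2.87 in BMN/PAZA low dose and 2.20 in BMN/PAZA high dose, past the fold only in PAZA of these libraries. TRP63 was higher in BMN and lower in PAZA and BMN/PAZA low dose. FBXW7, which marks MCL1 for degradation, was lower in PAZA and BMN/PAZA low dose, STAT3 in both combination libraries and RELA in BMN/PAZA high dose. The medians were 0.02, −0.25, −0.33 and −0.36, next to 0.09, −0.10, −0.08 and −0.22 over all genes. In FAS, TNFSF10, CASP8, RIPK1, STAT3, NFKB1 and RELA of these lists, the values of 1 library in different tables did not keep the constant.

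**Figure D4:**
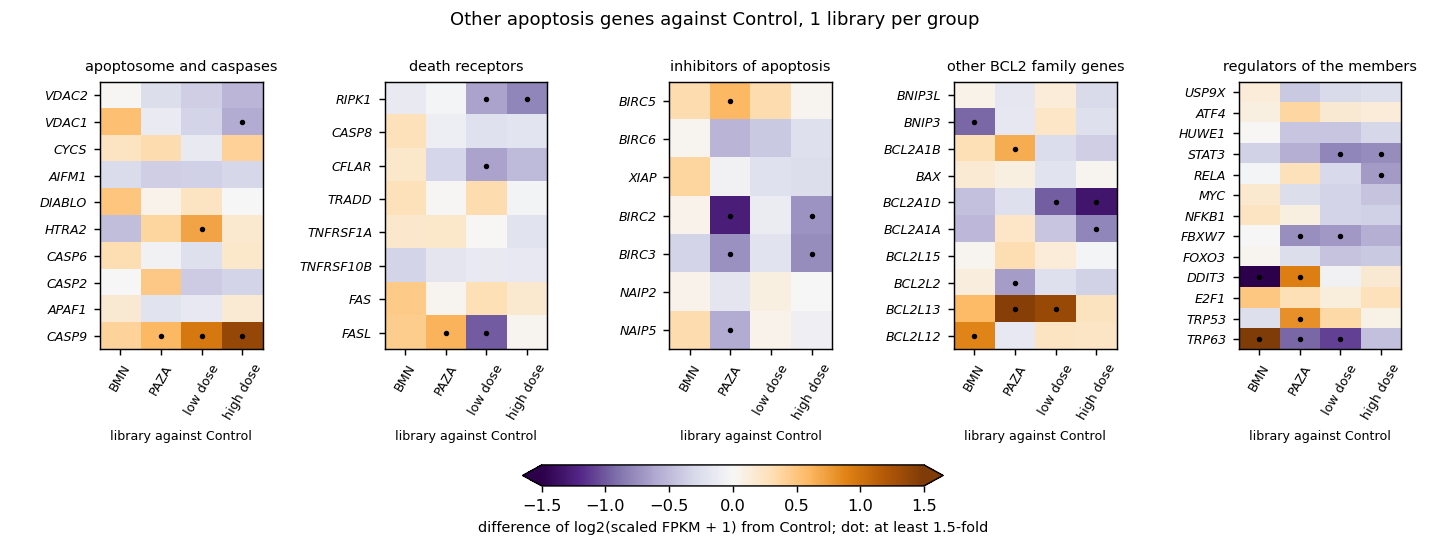
Difference of log2(scaled FPKM + 1) from Control for genes of 5 lists that passed the filter (rows) in 4 treated libraries (columns), with the colour scale cut at 1.5 on either side; a dot marks at least 1.5-fold. CASP9 has a dot in PAZA and in both combination libraries, and no gene shown has a dot of the same direction in all 4 columns.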

How the data were processed

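The reads were mapped to GRCm38 by the authors. The submitters' processing notes name HISAT2 and StringTie, without versions or roles. The authors deposited 5 tables of 2 libraries each with values of unnamed unit, read as FPKM from their form. For this report Control and PAZA came from their shared table, BMN and BMN/PAZA high dose from theirs, and BMN/PAZA low dose from its table with BMN/PAZA high dose. The row with the highest mean was kept for a repeated symbol, and each column was scaled to a sum of 1000000 over 13979 shared symbols. Tables had been scaled separately, so levels set across them rest on this step. Differences were taken on log2(value + 1), for genes with a mean of at least 1, and 1.5-fold was called. Some genes of the lists are not reported here. Tests were not possible with 1 library per group. The calls were also run on simulated libraries without noise, which checks the computation and not the precision of a call between 2 libraries. Constants between tables were median ratios, with 0.5% as tolerance. The genes named were all members, list genes past the fold against Control in 1 direction in all 4 treated libraries (0 genes) or behind a count of 5 or fewer, and the 3 genes nearest in pattern to each of the 3 members of widest range. The members and lists were chosen with earlier results of these data known. Coordinates are from GENCODE for GRCm38. Python 3.11.15, numpy 2.4.6, pandas 2.3.3 and matplotlib 3.10.9 were used. Depth is unknown, and replicates are lacking, so the precision of a value cannot be stated. Alternatives covered the pseudocount, filter, scaling, repeated rows, fold and source table, and 2 settings on the genes behind the scaling were added after seeing the data.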

Additional observations from a re-analysis of the deposited data

Results flagged for a closer look

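BBC3 was higher by 0.69 on the log2 scale in BMN against Control, without PAZA, and lower, at −0.84, in BMN/PAZA low dose against PAZA. These differences, each between 2 libraries, went opposite ways, and the difference between them was not tested. The share of all genes with such opposite differences was not computed, and BBC3 was weakly expressed, between 0.708 and 2.89 scaled FPKM. Skeletal muscle, epidermis and fibroblast markers also differed between the BMN and Control libraries, and their part was not tested.

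BIK, which had no row in the tables with BMN/PAZA high dose and entered no comparison, had 0.740 FPKM in PAZA and was listed at 0 in Control. That is a low value in a single library, and the share of all genes with a like difference was not computed.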

How the results depend on the processing

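No paired analysis was possible because each group has 1 library. With a 2-fold threshold, the members past it numbered 0 in PAZA, in BMN/PAZA low dose and in BMN/PAZA high dose against Control, 1 in BMN against Control, 0 in BMN/PAZA low dose against PAZA and 1 in BMN/PAZA high dose against BMN. With a pseudocount of 0.1 the count was 2 in BMN/PAZA low dose and 2 in BMN/PAZA high dose against Control, and 1 between the doses. Centred on the median of all genes, it was 1 in PAZA and 2 in BMN/PAZA high dose against Control, and 1 between the doses. Scaled without the 100 highest genes, it was 2 in the low and 2 in the high dose combination against Control, 3 in BMN against Control with BAD added as lower, and 1 between the doses. Scaled without mitochondrial transcripts and RN7SK, a setting chosen after seeing the data, it was 2 in BMN/PAZA high dose against Control and 1 between the doses. Under centring, under both scalings above and from the deposited columns of 1 table, BAD was higher past the fold in BMN/PAZA low dose against BMN. Under the same settings BBC3 was not past it in BMN/PAZA high dose against BMN. From the deposited columns of 1 table, the count was 1 in PAZA against Control. Between the doses these columns gave 8 members past the fold and a median of 1.52, because the low dose column there sums to 1918260 and the high dose column to 588459. Otherwise the cause was not tested. Of 549 member differences under alternatives, 539 moved by less than 1.5-fold, 9 of the others came from those deposited columns, BBC3 in BMN/PAZA low dose against BMN was −1.89 with a pseudocount of 0.1, and 0 differences past the fold turned direction. The ratios within a library could not move under the settings run for them, because the members have 1 row each and keep the constants between tables. Of 80 list counts, 39 moved beyond 1.5-fold. The unknown depth leaves the counting error of every level unstated.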

Other observations

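CDKN1A and MDM2, targets of p53 that were not on the lists and were chosen after their values were seen, were not alike. CDKN1A, which encodes the cell cycle inhibitor p21, was at 5.08 scaled FPKM in Control, 10.3 in BMN, 6.35 in PAZA, 5.38 in BMN/PAZA low dose and 5.28 in BMN/PAZA high dose, so that BMN was the highest library, as for PMAIP1 and BBC3. MDM2, which encodes the ligase that degrades p53, was at 57.1, 53.5, 54.7, 40.0 and 34.5 in the same order, with both combination libraries lowest, as for BCL2L1.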
